A study of Mus musculus with 15 samples.

Results

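The miR-106b-25 and miR-106a-363 clusters were measured with 14 of the 584 miRNA assays of a TaqMan low density array pair (cards A and B), which quantifies mature miRNAs by real-time PCR. Every assay named for miR-106a, miR-106b, miR-25, miR-93, miR-20b, miR-18b or miR-363 was taken, either arm, whether designed on the mouse (mmu, 10 assays) or the rat (rno, 4 assays) miRNA. The miR-106b-25 cluster had 6 assays and the miR-106a-363 cluster 8. Names with a star mark the arm of the hairpin that is usually the less abundant. The 15 samples were mouse cell lines in 5 conditions with 3 samples each. αTC1-6, a glucagon-producing line of pancreatic α cell type from a mouse glucagonoma, was left untreated or was given 50 IU/ml IL1b, 1000 IU/ml IFNg and 1000 IU/ml TNFa together, for 24 h or 48 h. βTC1, an insulin-producing mouse β cell line, was measured untreated at 24 h and was not given cytokines. Both are tumour-derived lines used as models of islet cells, at passages 20 to 40 per the labels.

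Both clusters are paralogs of the miR-17 cluster, which runs from miR-17 to miR-92a and is known for promoting proliferation and restraining cell cycle arrest and apoptosis. The miRNAs of a cluster are cut from a shared primary transcript, and each mature miRNA finds its target messages mainly through the seed, bases 2 to 8 from the 5′ end. In mouse genome build GRCm38.p6 the 3 hairpins of miR-106b-25 lay at chr5:138165321-138165818 on the minus strand, inside the bounds of Mcm7 (chr5:138164583-138172111), a gene of the DNA replication licensing complex. The 6 hairpins of miR-106a-363 lay at chrX:52741693-52742567 on the minus strand, and those of the miR-17 cluster at chr14:115043671-115044506 on the plus strand.

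The mature sequences, from the RefSeq annotation of that build, are shown because nearly identical members must be told apart by the assays; capitals mark the seed. The first group shares the seed AAAGUGC and includes miR-17 and miR-20a of the miR-17 cluster.
mmu-miR-106b-5p: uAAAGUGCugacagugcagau
mmu-miR-93-5p: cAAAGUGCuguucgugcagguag
mmu-miR-106a-5p: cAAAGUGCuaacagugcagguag
mmu-miR-20b-5p: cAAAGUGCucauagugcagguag
mmu-miR-17-5p: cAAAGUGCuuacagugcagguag
mmu-miR-20a-5p: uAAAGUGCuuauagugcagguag
The second group shares the seed AUUGCAC and includes miR-92a, which both the miR-17 cluster and miR-106a-363 encode.
mmu-miR-25-3p: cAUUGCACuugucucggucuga
mmu-miR-363-3p: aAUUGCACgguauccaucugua
mmu-miR-92a-3p: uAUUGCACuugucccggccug
The third group, with the seed AAGGUGC, pairs miR-18b of the X-linked cluster with miR-18a of the miR-17 cluster.
mmu-miR-18b-5p: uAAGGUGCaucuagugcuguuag
mmu-miR-18a-5p: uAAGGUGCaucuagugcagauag
Counting positions from 1 at the 5′ end, miR-106a and miR-17 differed at 1 of 23 bases, A10U from miR-106a to miR-17. miR-106a and miR-20b differed at 2 bases, A10C and C12U. miR-25 and miR-92a differed at 3 of the 21 bases compared, whereas miR-25 and miR-363 shared the seed and differed at 13 of 22.

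Values are threshold cycles (Ct), where a lower Ct means more product, and ΔCt, the Ct minus that of miR-26a in the same sample, so 1 cycle is 1 unit on the log2 scale. Wells without a Ct were deposited at 40. The Ct of miR-26a was 16.97 to 18.98, and 213 to 336 assays of card A and 174 to 191 of card B had a Ct per sample. The endocrine marker miR-375 had a Ct of 13.4 to 16.0 in every sample. The other, miR-7a, had a Ct in 2 of 3 samples with cytokines at 24 h and in all other samples. In untreated αTC1-6 and βTC1 at 24 h the mean ΔCt was -3.17 and -4.24 for miR-375, and 2.55 and 3.79 for miR-7a. Blood miR-142-3p and miR-223 and muscle miR-206 had a Ct in every sample. The other blood, muscle and liver markers had one in part of the samples. All of these lay at 26.09 cycles or later. All 3 acinar markers, miR-216a, miR-216b and miR-217, were detected in each of the 3 βTC1 samples (Ct 21.6 to 27.0). Of the 12 αTC1-6 samples, miR-216a was detected in 1, miR-216b in 4 and miR-217 in 0, all at 48 h, so these markers move with the cell line, and their part in differences between the lines was not tested. The plant control ath-miR159a, which rodent RNA lacks, had a Ct in 6 of 15 samples on card A and 12 of 15 on card B. The 12 on card B lay at 4.57 to 33.9 cycles, with the lowest in replicate 1 of untreated αTC1-6 at 24 h. The 6 on card A were the αTC1-6 samples of 48 h, at 16.3 to 33.0 cycles, and no sample of 24 h had one. Those 48 h samples also had a Ct for 303 to 336 assays of card A, against 213 to 275 in the samples of 24 h. Detection on card A thus moved with time, and its part in the values at 48 h was not tested. The methods describe the 3 samples of a condition as independent biological replicates.

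Members of both clusters were detected throughout, and members of both were not. The guide strands mmu-miR-106b, mmu-miR-93 and mmu-miR-25 and the passenger strands mmu-miR-106b* and mmu-miR-93* had a Ct in all 15 samples, as did mmu-miR-106a and rno-miR-20b-5p, 7 assays in all. Median Ct was 19.9 for mmu-miR-106b, 19.9 for mmu-miR-93, 20.9 for mmu-miR-25 and 23.0 for mmu-miR-106a. The other 7 assays lacked a Ct in at least 1 sample. mmu-miR-20b* had a Ct in 14 samples, mmu-miR-363 in 13, rno-miR-25* in 11, mmu-miR-20b in 10, rno-miR-363* in 9, and mmu-miR-18b and rno-miR-20b-3p in 4 each. All but 1 of these 7 assays belong to miR-106a-363. In 2 samples the value of mmu-miR-20b* averages a Ct with an undetermined duplicate well at 40. They were replicate 3 of untreated αTC1-6 at 48 h (25.98, averaged to 32.99) and replicate 3 of βTC1 (30.34, averaged to 35.17). In the non-normalized table mmu-miR-363 had a Ct in all 15 samples and mmu-miR-20b in 13.

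**Figure D1:**
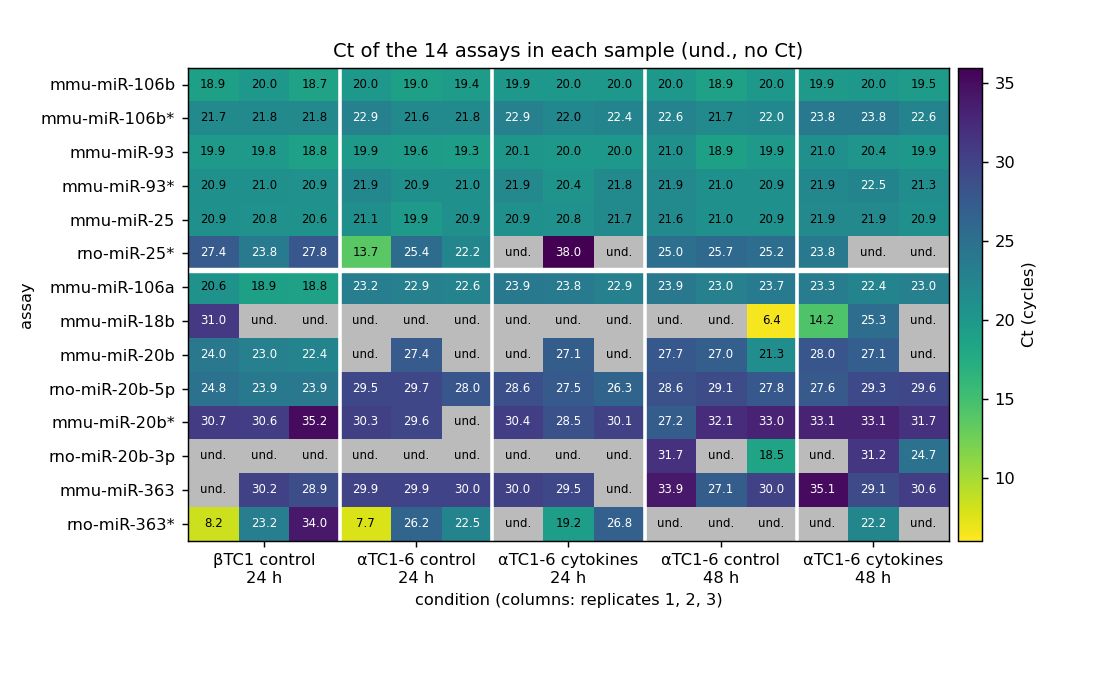
Ct in cycles (colour and printed value) of the 14 assays (rows, miR-106b-25 above the white line and miR-106a-363 below it) in the 15 samples (columns, 3 replicates per condition); grey cells had no Ct. Guide strands of miR-106b-25 stayed between 18.7 and 21.9 cycles, and most missing values lay in miR-106a-363. Where only 1 of 2 duplicate wells had a Ct (mmu-miR-20b*), the cell holds its mean with 40.

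Some wells of the poorly detected assays held values far below those of the same assay in other samples. A Ct under 15 was not unusual in itself, as miR-375 read down to 13.4. In 5 wells of 3 assays the Ct was under 15. They were mmu-miR-18b at 6.39 and 14.2, rno-miR-25* at 13.7, and rno-miR-363* at 7.68 and 8.23. Beside them, other samples of the same assays lay at 19.2 cycles or later or had no Ct. The 13.7 and 7.68 came from replicate 1 of untreated αTC1-6 at 24 h, where the plant control read 4.57 on card B. The 8.23 came from βTC1 replicate 1, where the plant control had no Ct on card B. Whether these readings are linked was not tested.

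The first comparison set untreated αTC1-6 against βTC1 at 24 h, the steady state of the cell models. It was fitted with limma over all assays that had a Ct in at least as many samples as not. miR-106a and miR-20b, guide strands of the X-linked cluster, were lower in αTC1-6, while no assay of miR-106b-25 passed the test. In all, 3 of 12 tested members had an adjusted p under 0.05, all 3 lower in αTC1-6, against 29.6 percent of the 480 assays tested. The groups did not overlap for the same 3 of 12, against 45.8 percent of all assays. The median log2 difference was -0.41 over the members and -0.52 over all assays tested. Median centring moved the latter to -0.24 and the small RNA reference (U6 and small nucleolar RNAs) to -0.84, and all 3 calls held under both.

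mmu-miR-106a, a seed sister of miR-17, had a ΔCt of 4.17, 5.39 and 4.92 in αTC1-6. In βTC1 its ΔCt was 2.19, 0.21 and 1.30. All 3 βTC1 samples lay below every αTC1-6 sample, that is at more miRNA. The log2 difference was -3.59 (SE 0.68, limma adjusted p = 0.0073), which is 12.1-fold lower in αTC1-6 (95% interval 3.72 to 39.1). Fewer cells with the miRNA and less miRNA per cell cannot be told apart in such bulk samples.

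The rat-designed rno-miR-20b-5p read 10.55, 12.10 and 10.30 cycles of ΔCt in αTC1-6. It read 6.41, 5.17 and 6.40 in βTC1. Again no sample of one line reached the other line, and the log2 difference was -4.99 (SE 0.70, limma adjusted p = 0.0086), or 31.7-fold (95% interval 9.49 to 106.1). With the replicate number as a block its adjusted p was 0.066, although the numbers did not pair these samples.

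The mouse-designed mmu-miR-20b had a ΔCt of 5.57, 4.23 and 4.87 in βTC1. In αTC1-6 it was 9.88 in replicate 2, and replicates 1 and 3 had no Ct. With those wells at 40 the difference was -12.84 (SE 3.37, limma adjusted p = 0.026), a size set by the value given to a missing Ct. In the non-normalized table, where replicate 1 had a Ct of 27.1, it was -8.56 with an adjusted p of 0.21. Its call was also lost when any sample but αTC1-6 replicate 2 was left out (limma adjusted p 0.073 to 0.091), and with αTC1-6 of 48 h in place of 24 h (-2.46, adjusted p = 0.34). Both miR-20b assays read lower in αTC1-6, and the rat design alone had a Ct in all 6 samples.

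No guide of miR-106b-25 passed the test between the lines, and the size of their differences depended on the reference. mmu-miR-25 had a ΔCt of 2.10, 2.38 and 3.24 in αTC1-6 and of 2.56, 2.06 and 3.09 in βTC1. The difference was -0.01 with a 95% interval of -1.34 to 1.33, which turned positive under median centring (0.28). For mmu-miR-93 the ΔCt was 0.94, 2.00 and 1.61 in αTC1-6 and 1.54, 1.06 and 1.31 in βTC1. Samples of the lines were interleaved, and its difference of -0.21 (-1.39 to 0.96) also turned positive under median centring (0.07). mmu-miR-106b had 0.99, 1.41 and 1.70 in αTC1-6 and 0.57, 1.22 and 1.21 in βTC1, a difference of -0.37 (-1.50 to 0.76). The passenger strands mmu-miR-93* (-0.50, -1.70 to 0.69) and mmu-miR-106b* (-0.46, -1.68 to 0.77) overlapped between lines too. The intervals of all 5 reached below -1 and above 0.6, so equal levels were not shown. With the small RNA reference the guides differed by more, at -0.53 for mmu-miR-25, -0.74 for mmu-miR-93 and -0.90 for mmu-miR-106b, with limma adjusted p of 0.46, 0.33 and 0.27. rno-miR-25*, the other passenger strand, had a Ct of 13.7, 25.4 and 22.2 in αTC1-6 and of 27.4, 23.8 and 27.8 in βTC1. Its difference of 5.73 (SE 3.59, limma adjusted p = 0.42) was the only positive one of the cluster relative to miR-26a, and it was 1.93 without the well under 15. Whether the clusters differ from each other in this contrast was not tested.

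**Figure D2:**
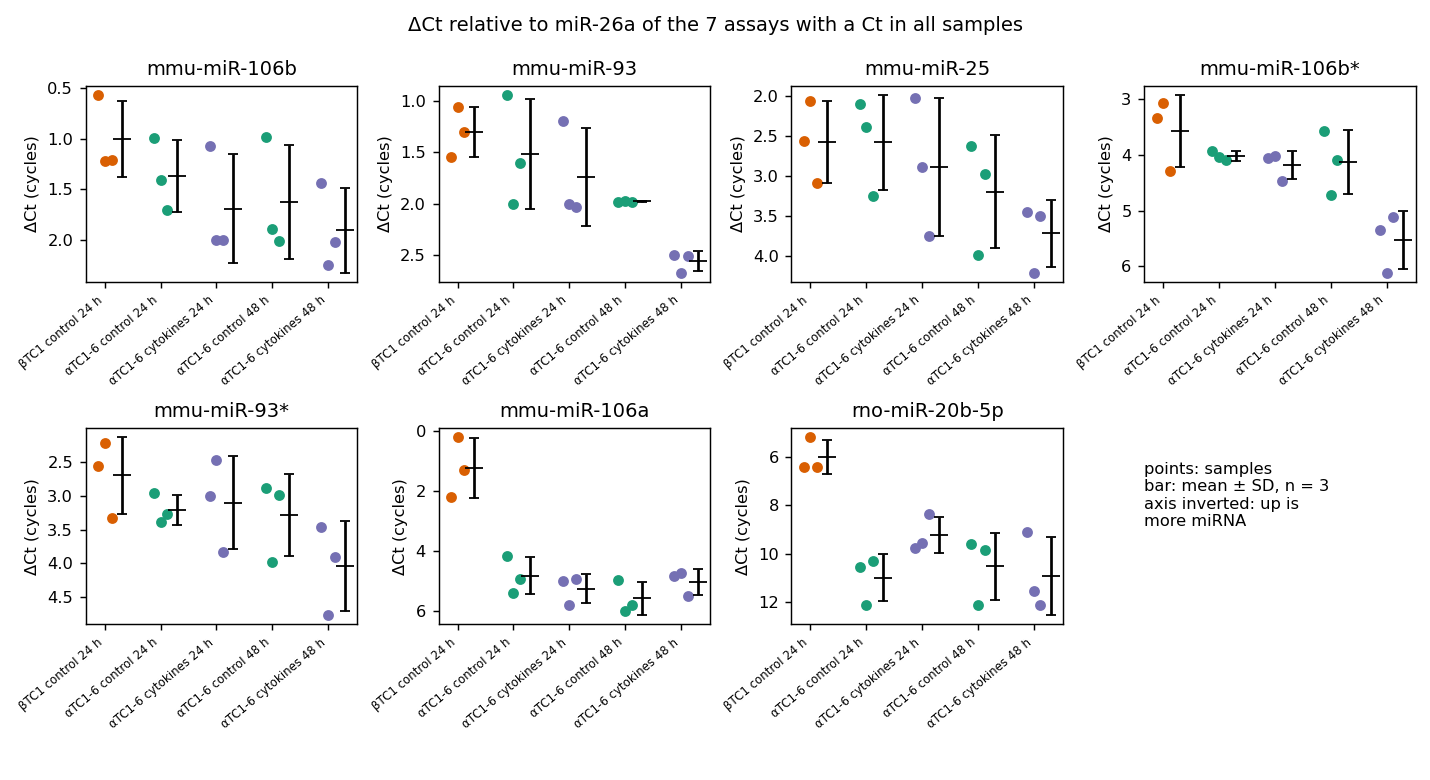
ΔCt relative to miR-26a (cycles, axis inverted so that up is more miRNA) of the 7 assays with a Ct in all samples, by condition; points are samples and bars the mean ± SD of 3. The βTC1 samples of mmu-miR-106a (0.21 to 2.19) and rno-miR-20b-5p (5.17 to 6.41) stood apart from all αTC1-6 samples, and those of the other 5 assays did not.

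The remaining tested members of miR-106a-363 gave no call. mmu-miR-363, which carries the seed of miR-25 and miR-92a, had a ΔCt of 10.90, 12.38 and 12.32 in αTC1-6. In βTC1 it had 11.48 and 11.35 in replicates 2 and 3 and no Ct in replicate 1. The difference of 2.95 (SE 2.93) came from that well, and became -0.45 when it was left missing. mmu-miR-20b*, the passenger of miR-20b, differed by -1.33 (SE 3.39), and rno-miR-363* by 2.86 (SE 8.30), with a Ct of 7.68, 26.2 and 22.5 in αTC1-6 and of 8.23, 23.2 and 34.0 in βTC1.

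The relatives in the miR-17 cluster were read beside the members, over a list of miR-17, miR-18a, miR-19a, miR-19b, miR-20a and miR-92a, either arm. Of 12 tested, 6 were lower in αTC1-6, 0 were higher and 6 did not pass, beside 85 lower and 57 higher among the 480 assays tested (29.6 percent called). The 6 were the guide strands of all 6 miRNAs. mmu-miR-17 differed by -4.13 (SE 0.64, limma adjusted p = 0.0032) and mmu-miR-92a by -2.02 (SE 0.44, limma adjusted p = 0.013). mmu-miR-18a (-15.68) had no Ct in any untreated αTC1-6 sample at 24 h, and mmu-miR-20a (-17.23) had one in replicate 1 only, so these sizes again depend on the value of 40. mmu-miR-19b and mmu-miR-92a are encoded in both clusters, and their assays cannot assign the RNA to one of them. Within the AAAGUGC seed group, then, miR-106a, miR-20b, miR-17 and miR-20a passed the test and miR-93 and miR-106b did not. Within the AUUGCAC group miR-92a passed and miR-25 and miR-363 did not.

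**Figure D3:**
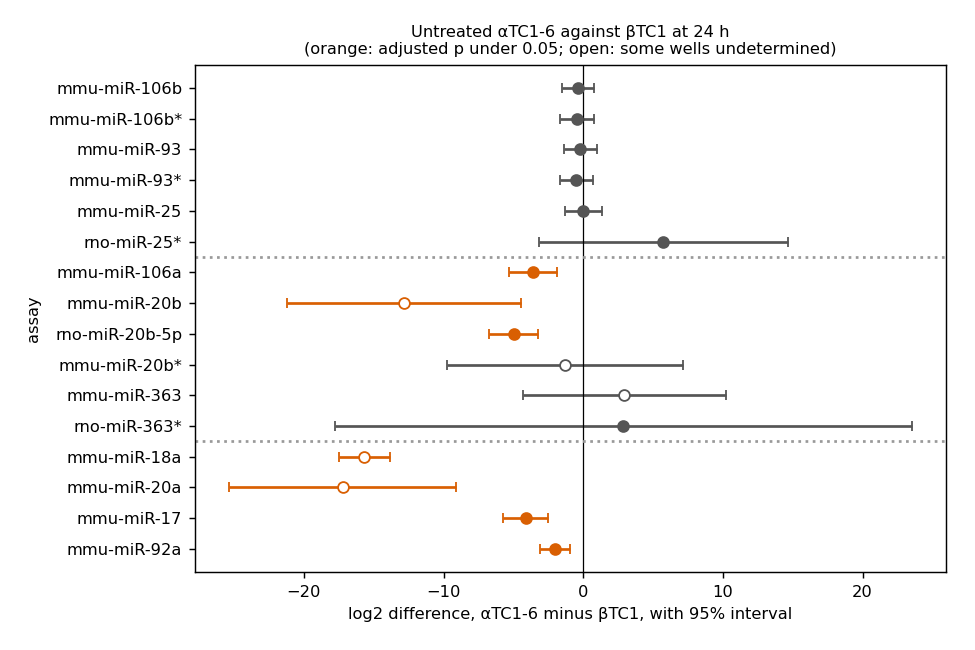
Log2 difference of untreated αTC1-6 minus βTC1 at 24 h with its 95% interval, for the 12 tested members (miR-106b-25, then miR-106a-363) and 4 seed relatives in the miR-17 cluster (below the lower dotted line). Orange assays had an adjusted p under 0.05 and open circles had wells without a Ct; the orange members were mmu-miR-106a, mmu-miR-20b and rno-miR-20b-5p, all below 0.

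mmu-miR-106a and mmu-miR-17, 1 base apart, gave almost the same Ct. In βTC1 the Ct of mmu-miR-106a was 20.57, 18.94 and 18.84. That of mmu-miR-17 was 20.54, 18.86 and 18.86 in the same samples. The mean difference was 0.03 ± 0.05 cycles (SD, n = 3) there and 0.01 ± 0.50 over all 15 samples, with a range of -0.88 to 1.35. The assays followed each other closely in βTC1 and less closely in αTC1-6. Whether each assay reads only its own miRNA was not tested.

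**Figure D4:**
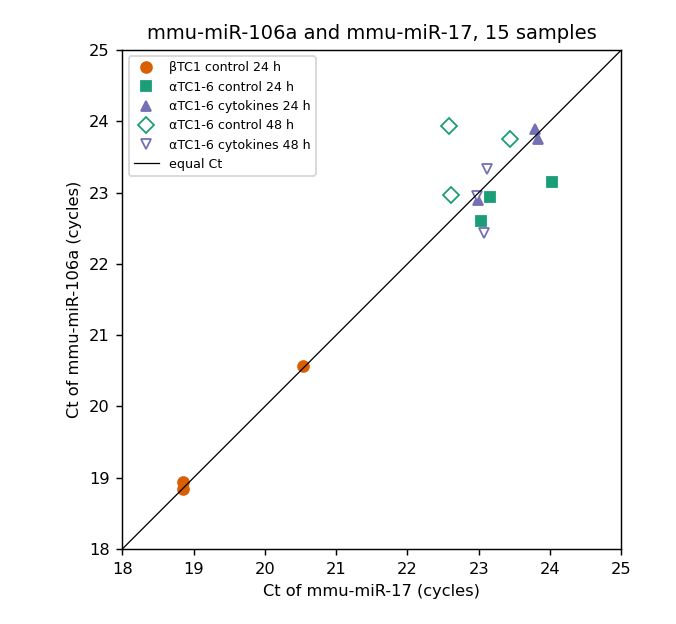
Ct of mmu-miR-106a against Ct of mmu-miR-17 (cycles) in the 15 samples, with the line of equal Ct; markers give the condition. The 3 βTC1 samples lay on the line at 18.8 to 20.6 cycles, and the αTC1-6 samples scattered around it, at 22.4 to 23.9 cycles of mmu-miR-106a.

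The cytokine comparisons asked which miRNAs change in αTC1-6 under treatment. The controls of 24 h also served in the comparison of lines and in that of times, and the controls of 48 h in that of times, so these comparisons are not independent. At 24 h no member passed the test, 0 of 11, against 0.225 percent of the 445 assays tested by limma. Without adjustment, 2 of 11 members had a p under 0.05, against 4.49 percent of all assays. The groups did not overlap for the same count, against 13.3 percent of all assays. Median log2 differences were -0.31 over the members and -0.15 over all assays, the latter 0.01 under median centring.

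At 24 h mmu-miR-106b had a ΔCt of 1.07, 2.00 and 2.01 with cytokines and differed by -0.32 (SE 0.43). mmu-miR-93 differed by -0.22 (SE 0.46), mmu-miR-25 by -0.31 (SE 0.59) and mmu-miR-106a by -0.43 (SE 0.48). Treated and control samples of these overlapped. Replicate numbers paired treated and control samples, and with the number as a block the SEs were 0.19, 0.18, 0.22 and 0.25 in the same order, with limma adjusted p of 0.55 to 0.63. Within pairs, mmu-miR-106b and mmu-miR-106a were lower with cytokines in 3 of 3, as were 21.3 percent of all assays tested. rno-miR-20b-5p had a ΔCt of 9.75, 9.56 and 8.36 with cytokines against 10.55, 12.10 and 10.30 without, so each treated sample was at more miRNA. Its difference of 1.76 (SE 0.68) had a limma adjusted p of 0.81. With the replicate block its SE was 0.45 and the limma adjusted p 0.39. Within pairs it was higher with cytokines by 0.80, 2.55 and 1.94.

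rno-miR-25*, the passenger strand of miR-25 on a rat design, had a Ct of 13.7, 25.4 and 22.2 in controls at 24 h. With cytokines it had no Ct in replicates 1 and 3 and a Ct of 38.0 in replicate 2. The difference of -18.70 (SE 3.43) had a limma adjusted p of 0.43, and with the well under 15 left out it was -14.89 with an adjusted p of 0.027. Leaving out control replicate 1 as a whole gave the same difference (limma adjusted p = 0.031). All of these sizes at 24 h include treated wells set to 40. At 48 h it had a Ct of 25.02, 25.73 and 25.19 in controls, and with cytokines 23.8 in replicate 1 and none in the others. The difference there was -9.38 (SE 5.11, limma adjusted p = 0.38), and it turned to 2.01 with wells without a Ct left missing. Without treated replicate 1 it was -15.08 (limma adjusted p = 0.013). No treated sample in that fit had a Ct, so it cannot decide whether rno-miR-25* fell. At each time 1 of the 6 fits that left out a sample passed. Their limma adjusted p reached 0.86 at 24 h and 0.61 at 48 h. The partner guide mmu-miR-25 had a Ct in all of the treated and control samples.

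At 48 h again no member passed, 0 of 13, against 0.562 percent of the 534 assays tested by limma. The treated samples did not overlap with the controls for 2 of 13, against 19.3 percent of all assays. Without the replicate block, an unadjusted limma p was under 0.05 for 1 of 13, against 11.2 percent of all assays. With the block it was under 0.05 for 4 of 13. The share over all assays was not counted for that fit, so those 4 have no background to be read against. The median log2 difference was -0.76 over the members and -0.51 over all assays. Centring on the sample median moved the latter to -0.07, so negative values at 48 h are read against it.

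mmu-miR-106b*, the passenger strand of miR-106b, had a ΔCt of 3.58, 4.72 and 4.10 in controls at 48 h. With cytokines it had 5.35, 6.12 and 5.12, each above every control. The difference was -1.40 (SE 0.47, 95% interval -2.60 to -0.20), with a limma p of 0.030 and an adjusted p of 0.24. With the replicate block its SE was 0.25 and the limma adjusted p 0.11. It was -0.96 under median centring and -0.76 with the small RNA reference, with adjusted p of 0.45 and 0.88. At 24 h its difference was -0.16 (SE 0.31). The cytokine effect at 48 h minus that at 24 h was -1.24 (SE 0.54), with a limma adjusted p of 0.53.

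mmu-miR-93 had a ΔCt of 1.98, 1.97 and 1.98 in controls and 2.49, 2.67 and 2.51 with cytokines at 48 h. These groups did not overlap, and the difference was -0.58 (SE 0.26, limma adjusted p = 0.62). Under median centring it was -0.14. mmu-miR-25 differed by -0.52 (SE 0.49) and mmu-miR-93* by -0.76 (SE 0.52). mmu-miR-106b differed by -0.27 (SE 0.44) and turned positive under both other scalings, 0.17 with median centring and 0.06 with the small RNA reference. All 6 assays of miR-106b-25 had a negative sign relative to miR-26a, with a median of -0.67, beside -0.51 for all assays, of which 74.7 percent were negative. Within pairs, all 5 mouse assays of the cluster were lower with cytokines in 3 of 3, as were 46.8 percent of all assays tested. With the replicate block the SE was 0.17 for mmu-miR-93, 0.22 for mmu-miR-25, 0.19 for mmu-miR-93* and 0.20 for mmu-miR-106b. In that fit the lowest limma adjusted p of a member was 0.11, for mmu-miR-106b*, and 0 of the 534 assays passed.

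mmu-miR-106a had a ΔCt of 4.96, 6.00 and 5.80 in controls and of 4.85, 4.72 and 5.52 with cytokines at 48 h. The samples overlapped and its difference of 0.56 (SE 0.44) had a limma adjusted p of 0.76. rno-miR-20b-5p differed by -0.41 (SE 1.12), and by 0.03 under median centring. mmu-miR-20b had a Ct in all 3 controls and in 2 treated samples, and its difference of -6.47 (SE 4.28) was -2.10 when the missing well was left out. mmu-miR-363 differed by -1.32 (SE 1.86) and mmu-miR-20b* by -1.97 (SE 2.07). With the replicate block the SE of mmu-miR-363 was 0.22 and its limma adjusted p 0.23. mmu-miR-18b had a Ct of 6.39 in 1 control and of 14.2 and 25.3 in 2 treated samples. rno-miR-20b-3p had a Ct of 31.7 and 18.5 in 2 controls and of 31.2 and 24.7 in 2 treated samples, so neither assay was read in all samples of a group.

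**Figure D5:**
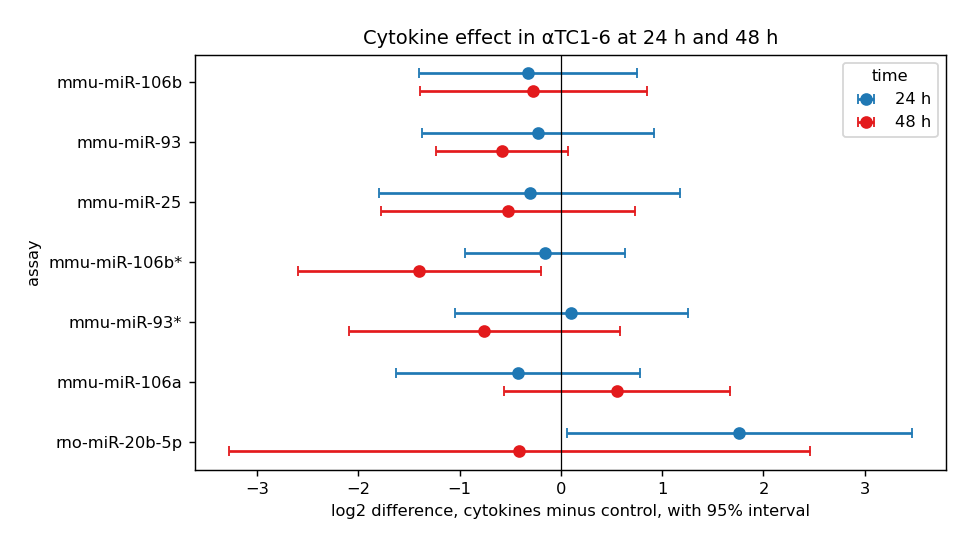
Log2 difference of cytokine-treated minus control αTC1-6 at 24 h and 48 h with its 95% interval, for the 7 members with a Ct in all samples. Intervals, from the fits without the replicate block, held 0 except those of rno-miR-20b-5p at 24 h (0.06 to 3.46) and mmu-miR-106b* at 48 h (-2.60 to -0.20). Neither passed after adjustment.

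Comparing the effect at 48 h with that at 24 h by an interaction term, 0 of 12 members passed, against 0.21 percent of 477 assays, and 1 had an unadjusted p under 0.05, against 3.98 percent. In untreated αTC1-6 at 48 h against 24 h, 0 of 12 passed, against 5.93 percent of 489 assays. The groups did not overlap for 1 of 12, against 14.7 percent of all assays, and 2 had an unadjusted p under 0.05, against 8.79 percent. The member without overlap was rno-miR-363*, with a Ct of 7.68, 26.2 and 22.5 at 24 h and none in any control at 48 h. Of mmu-miR-20b, only replicate 2 had a Ct at 24 h and all 3 samples at 48 h (difference 10.38, SE 3.84, limma adjusted p = 0.35). Without 24 h replicate 2 the limma adjusted p was 0.025, but no 24 h sample in that fit had a Ct. Its spread at 24 h then came from the value given to missing wells, so that fit cannot decide whether mmu-miR-20b changed. mmu-miR-25 (-0.62, SE 0.54), mmu-miR-93 (-0.46, SE 0.39), mmu-miR-106b (-0.26, SE 0.43) and mmu-miR-106a (-0.76, SE 0.50) overlapped between times. No relative in the miR-17 cluster passed in the cytokine or time comparisons (0 of 10, 0 of 11, 0 of 9 and 0 of 9 tested).

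Mean ΔCt is given for βTC1, then for αTC1-6 at 24 h without and with cytokines, then for αTC1-6 at 48 h without and with cytokines, as mean ± SD of 3 samples. mmu-miR-106b was at 1.00 ± 0.38, 1.37 ± 0.36, 1.69 ± 0.54, 1.63 ± 0.56 and 1.90 ± 0.42. mmu-miR-25 was at 2.57 ± 0.51, 2.57 ± 0.59, 2.88 ± 0.86, 3.19 ± 0.71 and 3.71 ± 0.42. Ordered by level, neighbouring conditions of these 2 assays differed by less than the larger of their SDs. mmu-miR-93 was at 1.30 ± 0.24, 1.52 ± 0.54, 1.74 ± 0.475, 1.98 ± 0.0031 and 2.56 ± 0.095. mmu-miR-93* was at 2.70 ± 0.57, 3.21 ± 0.22, 3.10 ± 0.68, 3.28 ± 0.60 and 4.04 ± 0.66, and mmu-miR-106b* at 3.56 ± 0.65, 4.02 ± 0.087, 4.18 ± 0.25, 4.13 ± 0.57 and 5.53 ± 0.52. For these 3 only the last step, to αTC1-6 with cytokines at 48 h, was larger than both SDs. On Ct centred on the sample median that held for mmu-miR-106b* (-3.51 ± 0.31 to -2.55 ± 0.63) and not for mmu-miR-93 (-5.66 ± 0.56 to -5.52 ± 0.41) or mmu-miR-93* (-4.36 ± 0.53 to -4.04 ± 0.50). mmu-miR-106a was at 1.23 ± 0.99, 4.83 ± 0.61, 5.25 ± 0.47, 5.58 ± 0.55 and 5.03 ± 0.43, and rno-miR-20b-5p at 6.00 ± 0.71, 10.98 ± 0.98, 9.22 ± 0.75, 10.52 ± 1.40 and 10.92 ± 1.61. For both, only the step from βTC1 to the nearest αTC1-6 condition was larger than both SDs.

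Guides cut from the transcript of miR-106b-25 correlated weakly from sample to sample. Over the 12 αTC1-6 samples, with Ct centred on the sample median, Pearson r was 0.28 for mmu-miR-25 and mmu-miR-93, -0.07 for mmu-miR-25 and mmu-miR-106b, and 0.14 for mmu-miR-93 and mmu-miR-106b. Among all pairs of the 278 assays with a Ct in every sample the quartiles were -0.19 and 0.30. With each card centred on its own median these values were 0.36, 0.38 and 0.12, beside quartiles of -0.18 and 0.32. The passenger strands mmu-miR-93* and mmu-miR-106b* had r = 0.71, or 0.57 by card. These 12 samples hold 4 conditions, and the assays of a sample share its RNA, so r is a description only.

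Likeness of each member to the 277 other assays was ranked over all 15 samples by the same r. mmu-miR-106b was closest to mmu-miR-497 (0.87) and mmu-miR-28 (0.68), mmu-miR-93 to mmu-miR-706 (0.68) and mmu-miR-124* (0.66), and mmu-miR-25 to rno-miR-29b-2* (0.63) and mmu-miR-24-2* (0.62). Of the passenger strands, mmu-miR-93* was closest to rno-miR-7a* (0.89) and mmu-miR-101b (0.84), and mmu-miR-106b* to mmu-miR-700 (0.79) and mmu-miR-149 (0.77). The βTC1 samples of mmu-miR-106a and rno-miR-20b-5p stand apart, so likeness is given within the 12 αTC1-6 samples for these. There mmu-miR-106a was closest to rno-miR-463 (0.74) and mmu-miR-30d (0.59), and rno-miR-20b-5p to mmu-miR-141* (0.77) and mmu-miR-7a* (0.62). Over all 15 samples the second nearest of rno-miR-20b-5p was mmu-miR-17 (0.85), which by ΔCt was also the second nearest of mmu-miR-106a (0.96). With each card centred on its own median, over the αTC1-6 samples, the second nearest of mmu-miR-106b* was mmu-miR-93 (0.69), of its own cluster. With ΔCt in place of the centred Ct, mmu-miR-106b kept mmu-miR-497 (0.93) and mmu-miR-28 (0.91), while mmu-miR-25 had mmu-miR-191* (0.88) and rno-miR-30d* (0.88).

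Technical error could be read from 3 members in duplicate wells on card B. The median absolute difference between wells was 0.12 cycles for mmu-miR-106b*, 0.585 for rno-miR-20b-5p and 1.24 for mmu-miR-20b*. The largest was 0.38, 1.73 and 7.5 in the same order. For mmu-miR-20b* this covers the 12 samples in which both wells had a Ct, and for the others 15. The Ct values also piled up just below whole cycles. Of 15 values each, 11 of mmu-miR-106b, 9 of mmu-miR-93 and 9 of mmu-miR-25 had a decimal part of 0.9 or more, 73.3, 60 and 60 percent, where an even spread gives 10. Over all miRNA wells with a Ct it was 36 percent of 8641. Differences well under 1 cycle between these guides therefore rest on values that were not spread evenly.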

How the data were processed

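The Ct values were read on TaqMan low density array cards A and B after reverse transcription and preamplification, and the authors deposited them without normalization and, in a second table, as ΔCt on the log2 scale. In that table the authors subtracted the Ct of miR-26a of each sample, gave undetermined wells a Ct of 40, and also deposited 2 to the power of -ΔCt, a ratio to miR-26a, which was checked against ΔCt and not tested. The methods name several reference genes, whereas the table holds 1. Another table holds the authors' fold changes, test over control of the same replicate number, and was not used.

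Duplicate wells were averaged, and -ΔCt was compared with limma 3.58.1 in R 4.3.3 (lmFit, eBayes) within the groups compared, with Benjamini-Hochberg adjustment within each card and a threshold of 0.05. Assays with a Ct under 40 in at least as many samples as not were tested, and the script was tested on simulated data. Figures and summaries used Python 3.11.15, pandas 2.3.3, numpy 2.4.6 and matplotlib 3.10.9. The text names every assay of the clusters, the miR-17 cluster list, and the 2 assays with the highest r to each member detected in all 15 samples. Members and lists were chosen with earlier results of these data known.

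Replicate numbers were checked for pairing by the correlation of deviations from group means over 278 assays. It was 0.28 to 0.48 at 24 h and 0.26 to 0.44 at 48 h between cytokine and control samples, so the numbers pair these. It was 0.064 to 0.095 between the lines and -0.045 to 0.24 between times, which do not pair. Alternatives were the reference, the filter, the value of undetermined wells, the table, the samples fitted, the replicate block, the adjustment and leaving out each replicate. Precision is limited by 3 samples per group. Mature sequences and positions come from RefSeq, build GRCm38.p6. The rat miRNAs and the 5′ arm of mouse miR-363 are named without sequence.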

Additional observations from a re-analysis of the deposited data

Results flagged for a closer look

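In some samples the non-normalized table gives a Ct where the normalized one, on which the comparisons rest, gives none. mmu-miR-18b had 3 such samples, with 28.3 cycles in αTC1-6 with cytokines at 24 h and 27.5 and 28.2 in βTC1. mmu-miR-20b had 3, at 27.1 in an αTC1-6 control of 24 h and 28.3 and 26.9 with cytokines. rno-miR-20b-3p had 5, from 14.8 to 35.6 cycles, and mmu-miR-363 had 2, at 30.1 and 31.1. Why these wells differ between the tables was not tested.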

How the results depend on the processing

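The lower mmu-miR-106a in αTC1-6 than in βTC1 kept its direction and its call in all 19 alternatives (-4.35 to -3.08). That of rno-miR-20b-5p did so except with the replicate block (-4.99, adjusted p = 0.066). Settings other than leaving out a replicate gave 2 or 3 of 9 to 14 tested members between the lines. Over all assays they called from 81 of 326 (a Ct in every sample) to 164 of 480 (median centring). As a share the lowest was 101 of 539 (non-normalized table). In the other comparisons all assays had 0 to 2 calls at 24 h, 0 to 5 at 48 h, 0 to 29 between times and 0 to 3 for the difference of effects. Members had 0 calls there, with 1 exception. With wells under a Ct of 15 left out, 1 member was called with cytokines at 24 h (rno-miR-25*, -14.89). That alternative, and the filter that did not count blank wells (3 members between the lines and 0 elsewhere), were chosen after seeing the data. Leaving out each replicate gave 2 to 3 members between the lines and 0 for the difference of cytokine effects. With cytokines it gave 0 to 1 at 24 h (1 without control replicate 1) and at 48 h (1 without treated replicate 1). Between times it gave 0 to 1 (1 without 24 h replicate 2). In the fits behind the calls at 48 h and between times, a whole group had no Ct for the member called. Those calls rest on the value given to missing wells. The calls of rno-miR-25* at 24 h rest largely on it too. Its treated samples there had no Ct in replicates 1 and 3 and a Ct of 38.0 in replicate 2. With the replicate block the cytokine comparisons called 0 members and 0 of all assays, where the unblocked fits called 1 at 24 h and 3 at 48 h over all assays; the lines had 2 members and 115 of all assays called, beside 142, and the block changed no other member's call. Over all assays, 29 differed between times, beside 0 with undetermined wells missing and 1 with a Ct in every sample.

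mmu-miR-20b between the lines lost its call in the non-normalized table (-8.56) and against αTC1-6 of 48 h (-2.46). Of 60 member differences, 18 changed sign under a setting other than leaving out a replicate, none of them past the threshold, and the causes were not tested. Under median centring these were, between the lines, mmu-miR-25 (0.28) and mmu-miR-93 (0.073), with cytokines at 48 h mmu-miR-106b (0.17) and rno-miR-20b-5p (0.031), between times mmu-miR-93* (0.12) and mmu-miR-106b* (0.088), and for the difference of effects mmu-miR-25 (0.090). With the small RNA reference they were mmu-miR-93* at 24 h (-0.010), mmu-miR-106b (0.059) and rno-miR-20b-5p (0.23) at 48 h, mmu-miR-106b between times (0.16) and mmu-miR-25 for the difference of effects (0.061). With undetermined wells missing they were mmu-miR-363 (-0.45) and mmu-miR-20b* (0.59) between the lines, mmu-miR-363 at 24 h (0.54), mmu-miR-18b (-13.22) and rno-miR-25* (2.01) at 48 h, and mmu-miR-363 for the difference of effects (-1.86). In the non-normalized table they were mmu-miR-363 at 24 h (0.17), mmu-miR-20b* at 48 h (1.09) and between times (-0.80), and mmu-miR-363 for the difference of effects (-1.49). Against αTC1-6 of 48 h they were rno-miR-363* (-18.46) and mmu-miR-20b* (1.12).

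Ranges over the left-out replicates that changed sign or call were, between the lines, -16.77 to -10.56 for mmu-miR-20b, -0.26 to 0.33 for mmu-miR-25, -0.50 to 0.028 for mmu-miR-93, -0.45 to 4.68 for mmu-miR-363, -3.57 to 9.72 for rno-miR-363* and -3.28 to 2.20 for mmu-miR-20b*. With cytokines at 24 h they were -0.74 to 0.12 for mmu-miR-25, -0.50 to 0.063 for mmu-miR-93, -4.90 to 0.54 for mmu-miR-363, -0.21 to 0.47 for mmu-miR-93* and -21.43 to -14.89 for rno-miR-25*. At 48 h they were -3.90 to 9.16 for mmu-miR-18b, -7.48 to 3.77 for rno-miR-20b-3p, -2.61 to 0.13 for mmu-miR-363, -0.51 to 0.049 for mmu-miR-106b, -15.08 to -6.47 for rno-miR-25*, -3.14 to 0.33 for mmu-miR-20b* and -1.33 to 0.19 for rno-miR-20b-5p. Between times they were 8.10 to 14.31 for mmu-miR-20b, -1.66 to 0.75 for mmu-miR-363, -0.28 to 0.27 for mmu-miR-93*, -0.39 to 0.18 for mmu-miR-106b*, -1.08 to 4.40 for mmu-miR-20b* and -0.091 to 1.27 for rno-miR-20b-5p. For the difference of effects they were -0.64 to 0.21 for mmu-miR-25, -1.86 to 3.58 for mmu-miR-363 and -0.18 to 0.37 for mmu-miR-106b. Values near 40 cycles set the size of every difference that includes an undetermined well, and with 3 samples a group small differences could not be resolved.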

Other observations

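The Ct of mmu-miR-25 minus that of mmu-miR-92a, its seed relative, was -1.82 ± 0.25 (SD, n = 3) in untreated αTC1-6 at 24 h and 0.19 ± 0.42 in βTC1. In αTC1-6 with cytokines at 24 h it was -1.70 ± 0.40, and at 48 h it was -1.44 ± 0.53 without and -1.31 ± 0.55 with cytokines. The lines did not overlap in this difference of Ct, which ran from -2.03 to -1.55 in untreated αTC1-6 at 24 h and from -0.085 to 0.675 in βTC1. It was looked at after the values of both assays had been seen and was not tested.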
